A study of Mus musculus with 3 samples.

Results

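The AP-1 and immediate early genes were examined in ribosome-associated RNA of endothelial cells of the mouse heart. They comprise 10 genes, namely Fos, Fosb and Fosl2 of the Fos family, Jun, Junb and Jund of the Jun family, and Atf3, Egr1, Ier2 and Nr4a1, and each of the 10 symbols is listed among the 17583 genes of the deposited table. The genes were chosen by their symbols after the values of the same 3 libraries had been seen, in which Fos and Fosb stood out by their spread between mice, so that every level and spread below is a description and no test was made on them. The 3 libraries come from 3 mice of the genotype Cdh5-CreERT2;Rpl22tm1.1Psam (EC-RiboTag), in which a tamoxifen-inducible Cre recombinase driven by the Cdh5 promoter gives endothelial cells an HA-tagged version of the ribosomal protein RPL22. Tagged ribosomes were immunoprecipitated from homogenized hearts that had been perfused with cycloheximide, which arrests translating ribosomes on their mRNA. According to the labels the hearts were taken 7 days after coronary ligation, whereas the methods of the study mention no infarction for this experiment. The study abbreviates remote zone as RZ and describes such RNA from the remote zone after infarction in a separate qRT-PCR measurement, but the labels do not say whether Rz in the sample titles means this zone. The mice were on a C57BL/6 background according to the methods, and the labels give no age. All libraries belong to 1 condition, and no input, sham or untreated library was analysed here, so values are levels within the immunoprecipitate.

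AP-1 is a dimeric transcription factor. Its subunits carry a basic region that contacts DNA and a leucine zipper that joins a pair of proteins. Fos proteins need a Jun partner to bind DNA, whereas Jun proteins can also pair among themselves. Immediate early genes are transcribed within minutes of a stimulus such as a growth factor, shear stress, ischemia or handling of tissue, without new protein synthesis, and many of their mRNAs are short-lived. In the promoters of several of them, serum response factor binds a CArG box and CREB binds a cyclic AMP response element (CRE). Endothelial cells are known to use this class of genes in their responses to flow, inflammatory cytokines and vascular endothelial growth factor.

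The deposited values are read counts divided by a size factor for each library and rounded to whole numbers, and they are called normalized counts here. The pattern of skipped and doubly filled whole numbers among low values gave the worth of 1 read in each library, and by it the libraries hold about 7319000, 6755000 and 7565000 reads. Of the 12 endothelial markers that were set out, all 12 were present with summed normalized counts of 27855, 26745 and 27863 in mice 1, 2 and 3, while the 7 leukocyte markers listed in the table summed to 447, 681 and 681. Markers of cardiomyocytes were also abundant, with sums of 19575, 20524 and 23326. Ttn, with 7379, 7743 and 10190, and Ryr2, with 3280, 3667 and 4486, were highest in mouse 3. Actc1, Mb, Myl2, Myl3, Tnni3 and Nppa were lowest in mouse 3, so the sums do not stand for each marker. The RNA is bulk RNA, in which fewer cells of a type and less RNA per cell cannot be told apart.

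Within the Fos family, Fos and Fosb were far higher in mouse 3 than in the other mice, and Fosl2 was not. Fos, which encodes c-Fos, spans bases 85520664 to 85524047 of chromosome 12 (GRCm39, plus strand), and its normalized count was 252 in mouse 1, 220 in mouse 2 and 652 in mouse 3. These values rest on about 258, 208 and 679 reads. Mouse 3 was 2.59-fold above the higher of the other mice, whereas mice 1 and 2 lay close together. Fosb, at 19036621 to 19043976 of chromosome 7 (minus strand), encodes FosB and, by alternative splicing, the truncated ΔFosB, which counts per gene do not separate. It had normalized counts of 204, 198 and 707, so that mouse 3 was 3.47-fold above the higher of the other mice. Fosl2, which encodes the Fos-related antigen Fra-2, lies on chromosome 5 from 32293145 to 32315186 and had 1153, 1339 and 1344 normalized counts. For Fosl2 the low library was mouse 1, and mice 2 and 3 were nearly equal.

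**Figure D1:**
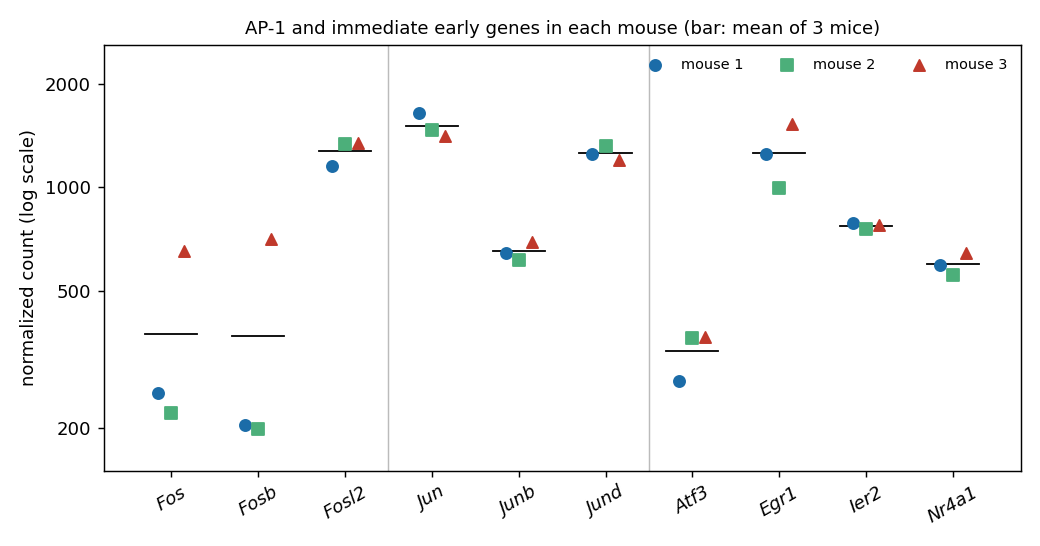
Normalized count on a log scale of each of the 10 genes in mouse 1 (circles), mouse 2 (squares) and mouse 3 (triangles), with the mean of the 3 mice as a bar and vertical lines between the Fos family, the Jun family and the other genes. Fos and Fosb sit at 652 and 707 in mouse 3 and between 198 and 252 in the other mice, whereas Egr1, between 996 and 1525, has the widest range of the remaining genes.

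As a mean over the 3 mice, Fos had a normalized count of 374.7 ± 240.7 (SD, n = 3), Fosb 369.7 ± 292.2 and Fosl2 1279 ± 108.9. The mean of Fos without mouse 3 was 236.0 and that of Fosb was 201.0. The log2 ratio of mouse 3 to the mean of mice 1 and 2 was 1.47 for Fos, 1.81 for Fosb and 0.11 for Fosl2. The spread of Fos, with a coefficient of variation of 64.2%, was 11 times that expected from counting reads, and that of Fosb, with 79.0%, was 12.8 times. Without mouse 3 the coefficient of variation was 9.59% for Fos and 2.11% for Fosb. No window of 72 bases of the canonical transcript of either gene had an exact copy elsewhere in the genome, so reads of Fos and Fosb are not exchanged between these paralogs as exact matches.

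Because Fos and Fosb varied together, the stretch from 350 to 51 bases before the start of each canonical transcript is shown, read 5′ to 3′ on the strand of the gene. Capitals mark the CArG box and each TGACG, the core of a CRE, which appears as CGTCA where it lies on the opposite strand. The stretch of Fos is chr12:85520308-85520607 on the plus strand of GRCm39, and that of Fosb is chr7:19044027-19044326 on the minus strand.
Fos: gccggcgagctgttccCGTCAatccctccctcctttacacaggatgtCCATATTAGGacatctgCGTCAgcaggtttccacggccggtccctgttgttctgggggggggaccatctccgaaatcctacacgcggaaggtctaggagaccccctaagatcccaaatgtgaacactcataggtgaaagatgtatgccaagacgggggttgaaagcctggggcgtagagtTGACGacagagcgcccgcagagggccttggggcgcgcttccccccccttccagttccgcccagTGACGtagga
Fosb: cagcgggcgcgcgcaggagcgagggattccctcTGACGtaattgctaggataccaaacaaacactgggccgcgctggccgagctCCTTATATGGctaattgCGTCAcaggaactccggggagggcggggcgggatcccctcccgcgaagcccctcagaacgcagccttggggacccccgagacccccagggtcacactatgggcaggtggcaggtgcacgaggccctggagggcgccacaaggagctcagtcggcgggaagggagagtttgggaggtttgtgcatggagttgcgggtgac

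The CArG box of Fos began 303 bases before the transcript start and was followed by a CGTCA from 286 to 282 bases before it. In Fosb the CArG box began 266 bases before the start, with a CGTCA from 249 to 245 bases before it, so that both stretches hold the 2 elements in the same order and spacing. Searched on both strands of the 400 bases before the canonical start, a CArG box was found in 2 of the 10 genes, Fos and Fosb, and in 2.0% of the 17475 genes of the table with a canonical transcript. With every annotated start of a gene searched, Junb also held a CArG box, and 6.8% of genes did. Egr1 has a single annotated start, and its annotated span is 1412 bases longer than its span in RefSeq. The 3′ ends were taken as equal, which puts all of this distance at the start. With the start moved in by this distance, a choice made after the data had been seen, the 400 bases before it held 4 CArG boxes. TGACG was found before 8 of the 10 canonical starts and before 26.9% of those of all genes, and before any start of all 10 and of 54.7% of genes. The full palindrome TGACGTCA, which contains TGACG on each strand, was found before Jund and Ier2 and before 1.9% of all genes. The AP-1 site TGACTCA was found before none of the 10 canonical starts and before 5.5% of those of all genes, and at any start before Fosl2 and before 19.0% of genes. TATAAA was found before the canonical starts of Fos, Junb and Nr4a1 and before 14.3% of all, against the same 3 genes and 41.5% of genes at any start. These are matches of letters in a window that depends on the annotated start.

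Jun, Junb and Jund, the intronless genes of the Jun family, each had a coefficient of variation under 10%. Jun, which encodes c-Jun and lies on chromosome 4 from 94937271 to 94940459, had normalized counts of 1646, 1463 and 1406, a mean of 1505 ± 125 (SD, n = 3). Mouse 3 was the lowest library for Jun, opposite to Fos. Junb, on chromosome 8 from 85701113 to 85705347, encodes a Jun protein of weaker transactivating activity than c-Jun and had 646, 614 and 694, a mean of 651.3 ± 40.3. Jund, on chromosome 8 from 71151599 to 71153265, encodes the most constitutively expressed member of the family and had 1247, 1317 and 1199, a mean of 1254 ± 59. The log2 ratio of mouse 3 to the mean of the other mice was -0.14 for Jun, 0.14 for Junb and -0.10 for Jund, and the coefficients of variation were 8.33%, 6.18% and 4.73%. For Jun this spread was 3.23 times that of counting alone, and for Junb and Jund it was 1.57 and 1.68 times. The counting error used here takes no account of duplicate removal, by which a start position of a read is kept once. That effect is largest for genes with many reads per length, such as Jund.

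Of the 4 remaining genes, Egr1 varied most between mice and Ier2 least. Egr1, which encodes a zinc finger transcription factor induced by serum response factor, lies on chromosome 18 from 34992876 to 34998037. Its normalized counts were 1254, 996 and 1525, with a mean of 1258 ± 265 (SD, n = 3) and a coefficient of variation of 21%, 7.32 times that of counting. Mouse 3 was the highest library and mouse 2 the lowest, and the log2 ratio of mouse 3 to the others was 0.44. This order was shared with Fos, Fosb, Junb and Nr4a1, but for Fosb mice 1 and 2 were nearly equal, at 204 and 198.

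Atf3, on chromosome 1 from 190902493 to 190950236, encodes a stress-induced bZIP protein that can pair with Jun proteins. It had 274, 365 and 366 normalized counts, a mean of 335.0 ± 52.8, and was low in mouse 1 only. Nr4a1, which encodes the orphan nuclear receptor Nur77, lies on chromosome 15 from 101152150 to 101172676 and had 595, 556 and 644, a mean of 598.3 ± 44.1. Ier2, an intronless gene of chromosome 8 from 85387960 to 85389483 whose product is a nuclear protein induced by growth factors, had 785, 755 and 775, a mean of 771.7 ± 15.3. The spread of Ier2 was 0.55 times that of counting alone, with the same limit from duplicate removal. The log2 ratio of mouse 3 to the others was 0.20 for Atf3, 0.16 for Nr4a1 and 0.01 for Ier2.

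The spread of the 10 genes was then set beside that of the whole table. Among the 9358 genes with a mean normalized count of at least 200, which include all 10, 749 (8.00%) exceeded 20% in coefficient of variation, as did Fosb, Fos and Egr1 among the 10. By this coefficient Fosb ranked 3, Fos 5 and Egr1 674 of the 9358 genes. Egr1 lay just above the limit of 20% and Atf3, with 15.8%, was the next below it. Egr1 was at 29.7% without mouse 1 but at 13.8% without mouse 2 and 16.2% without mouse 3. The median was 8.42% for the 10 genes, 7.85% for the 8 without Fos and Fosb and 7.37% for all genes tested. More genes stood out as high in mouse 3 than in the other mice, whereas genes low in a single mouse were not counted. At least 1.5-fold above each other mouse were 75 genes (0.801%) in mouse 3, among them Fos and Fosb, and no other of the 10. The corresponding numbers were 18 genes (0.192%) in mouse 1 and 9 (0.0962%) in mouse 2, and none of the 10 was among them. By the log2 ratio of mouse 3 to the mean of mice 1 and 2, Fosb ranked 1, Fos 4 and Egr1 306. These ranks use the values by which Fos and Fosb had been noticed. The remaining 8 genes had a median log2 ratio of 0.12, with 6 of the 8 above 0, among them Ier2 at 0.01. Over all 9358 genes the median was -0.02, with 4191 above 0.

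**Figure D2:**
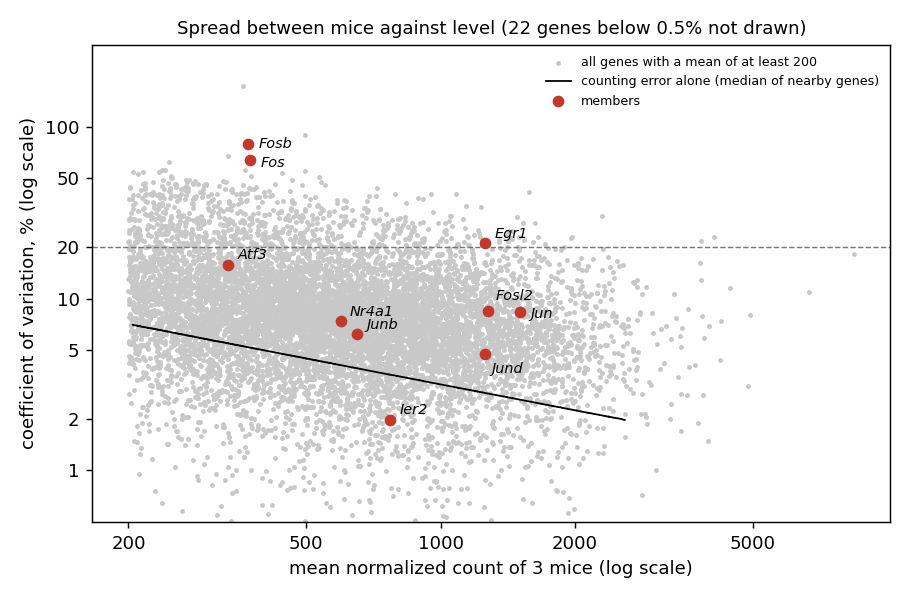
Coefficient of variation over the 3 mice in percent against the mean normalized count, both on log scales, for genes whose mean is at least 200 (grey), with the 10 genes in red, the spread expected from counting as a line and the limit of 20% dashed. Fos and Fosb lie at the upper edge of the cloud at 64.2% and 79.0%, and Ier2 lies below the counting line at 1.98%.

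Levels of different genes were compared per length, as the normalized count per kb of canonical transcript. On this scale Jund was the highest of the 10 with 752.4 ± 35.6 per kb (SD, n = 3), followed by Ier2 with 506.3 ± 10.0, Jun with 471.9 ± 39.3 and Junb with 360.1 ± 22.3. The 4 intronless genes thus took the first places. Egr1 had 279.9 ± 58.8 per kb, Nr4a1 234.8 ± 17.3 and Fosl2 183.3 ± 15.6. At the lower end, Fos had 177.2 ± 113.9, Atf3 168.9 ± 26.6 and Fosb 97.7 ± 77.2. The median over the 9358 genes above was 176.3 per kb, so that Fos on average was a gene of middling level. Of the 9 neighbouring pairs in this order, 4 were further apart than the larger SD of the pair, namely Jund and Ier2, Jun and Junb, Junb and Egr1, and Nr4a1 and Fosl2. Ier2 and Jun, Egr1 and Nr4a1, and all pairs from Fosl2 to Fosb did not. In single mice, Fos had 119.2, 104.1 and 308.4 per kb and Fosb 53.9, 52.4 and 186.9. In mouse 3 Fos therefore stood above Nr4a1, which had 252.7, and in mice 1 and 2 it stood below Atf3, which had 138.1 and 184.0.

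**Figure D3:**
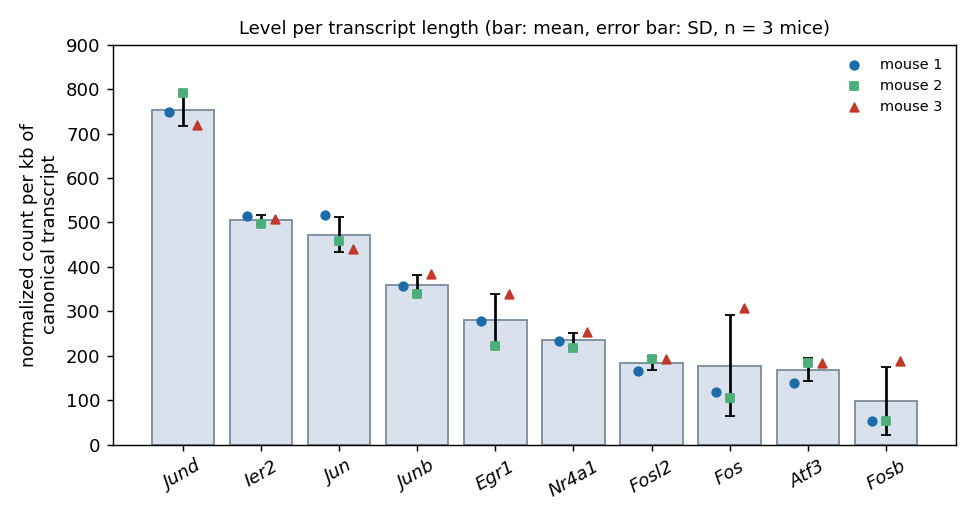
Normalized count per kb of canonical transcript of the 10 genes in order of the mean, as bars with the SD over 3 mice and the single mice as points. Jund leads with 752.4 and the bars of Fos and Fosb carry the widest errors relative to their height.

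The order depends on the transcript length taken. Divided by the length of all annotated exons, Fos had 158.9, Nr4a1 54.9 and Fosb 59.2 per kb, and Nr4a1 moved from place 6 to place 10. With its length shortened by the same 1412 bases to 3084 bases, Egr1 would have 408.0 per kb and place 4. Duplicate removal also bears on the comparison, because a start position of a single-end read is kept once. Jund, at 752.4 per kb, exceeded the 99th percentile of 737.0 per kb over these genes. With the counts corrected for start positions already occupied, a setting chosen after the data had been seen, the log2 ratio of mouse 3 to the others was 1.65 for Fos, 1.93 for Fosb and 0.54 for Egr1, and for Ier2 it was 0.05.

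Summed over each family, the Jun genes were present at a nearly constant level while the Fos genes were not. The Jun family had 1621, 1588 and 1544 per kb in mice 1, 2 and 3, and the Fos family 338.4, 348.4 and 688.0. The Fos family thus had 0.209, 0.219 and 0.446 times the level of the Jun family per length. In undivided normalized counts the ratio was 0.455, 0.518 and 0.819, a mean of 0.597 ± 0.195 (SD, n = 3). Neither the sums nor these ratios were corrected for start positions already occupied. That effect is largest for genes with many reads per length, such as Jund. With that correction the log2 ratio of mouse 3 to the others was -0.18 for Jun, 0.20 for Junb and -0.11 for Jund. The sums and makeup of the Fos family and its ratio to the Jun family restate the values by which Fos and Fosb had been noticed. They are no further result. Fosl2 contributed 48.8% and 55.1% of the family per length in mice 1 and 2 and 28.0% in mouse 3, where Fos contributed 44.8% and Fosb 27.2%. In mice 1 and 2 the share of Fosb was 15.9% and 15%. Per length, Jund was the largest part of the Jun family in every mouse, with 46.1%, 49.7% and 46.6%, whereas in undivided normalized counts Jun was.

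**Figure D4:**
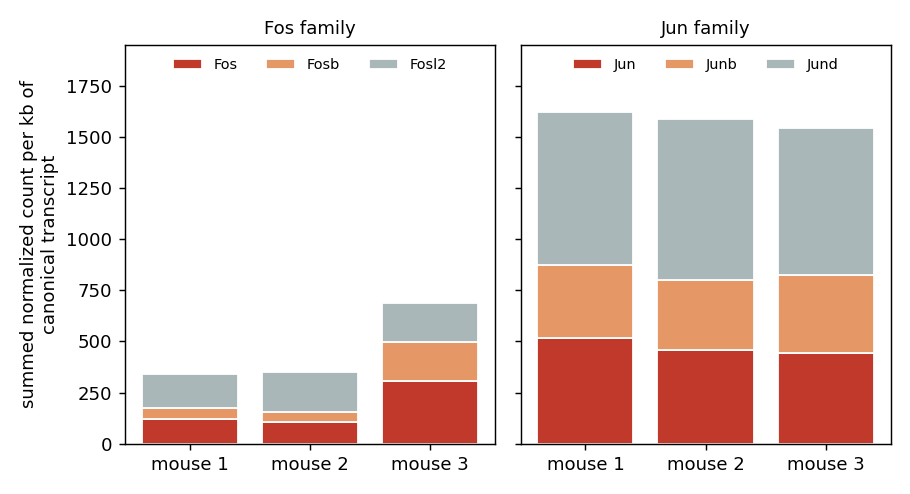
Summed normalized count per kb of canonical transcript of the Fos family (left) and the Jun family (right) in each mouse, divided by gene. The Fos column of mouse 3 reaches 688.0 against 338.4 and 348.4, and the Jun columns stay between 1544 and 1621.

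Other genes of the pathway were counted from lists drawn up beside the 10. Of 12 further AP-1 and Maf-related bZIP genes, all were listed and 8 had a mean of at least 200. The median log2 ratio of mouse 3 to the others was 0.05 over these 8. None of the 8 was at least 1.5-fold above both other mice in mouse 3, near the share of 0.801% over all genes tested. The highest normalized counts were those of Mafg, with 1205, 1271 and 1148, and Mafk, with 1258, 1099 and 1208, which encode small Maf proteins. Maf, a large Maf protein gene, exceeded 20% in coefficient of variation with 272, 447 and 477, mouse 1 being the low library. Fosl1, which encodes the remaining Fos protein Fra-1, was low with 15, 25 and 42, at rank 12805 of the 17583 genes by mean. Its log2 ratio of mouse 3 to the others was 1.07, and its counting error was 20.8%. Batf3 had 15, 35 and 28, and Batf and Batf2 lay between 111 and 157 in each mouse.

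Of 31 further immediate early genes, 30 were listed (Egr4 was not) and 24 had a mean of at least 200. Their median log2 ratio was 0.06, and 13 of the 24 were above 0. None was at least 1.5-fold above both other mice in mouse 3, again near the share of 0.801% over all genes tested. Klf6 and Rhob had the highest normalized counts, with 1995, 1998 and 1976 and with 1901, 2000 and 1802. Dusp1, a phosphatase that ends MAP kinase signals, had 1285, 1180 and 1279. These were steady between mice, as were Klf2 and Klf4, the flow-responsive factors of endothelium, with ratios of -0.13 and 0.08. Over 20% in coefficient of variation, as were 8.00% of all genes tested, were Arc, Per1 and Ccn2. Per1, a clock gene that CREB induces, had 789, 697 and 1126, a log2 ratio of 0.60. Ccn2, a matricellular gene, had 716, 765 and 1064, a ratio of 0.52. Arc, best known from neurons, had 117, 273 and 324, so that mouse 1 was the low library. Egr3 and Socs3, with ratios of 0.25 and 0.27, had coefficients of variation of 10.5% and 17.2%.

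The kinases and factors upstream of these genes were counted in the same way. All 20 had a mean of at least 200, and their log2 ratios lay between -0.26 and 0.27. None had a coefficient of variation over 20%, which in a list of this size is near the share of 8.00% over all genes tested. Elk3, a ternary complex factor that joins serum response factor at the CArG box, had the highest normalized count with 2668, 2588 and 2478, and the ribosomal S6 kinase gene Rps6ka3 had 1904, 2306 and 2303. Srf itself had 1007, 1012 and 1057, and Mapk7, the kinase ERK5, had 682, 703 and 693. Of 15 genes known as AP-1 targets, 7 had a mean of at least 200, and the median log2 ratio of the 7 was -0.02. None of the 7 exceeded 20% in coefficient of variation, which in so short a list is also near the share of 8.00%. Ccnd1, the gene of cyclin D1, had 2515, 2841 and 2615, and Cdkn1a, the gene of the cell cycle inhibitor p21, had 944, 1261 and 1200. The classical AP-1 targets Mmp3, Mmp9 and Mmp13 had at most 12 normalized counts in any mouse.

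**Figure D5:**
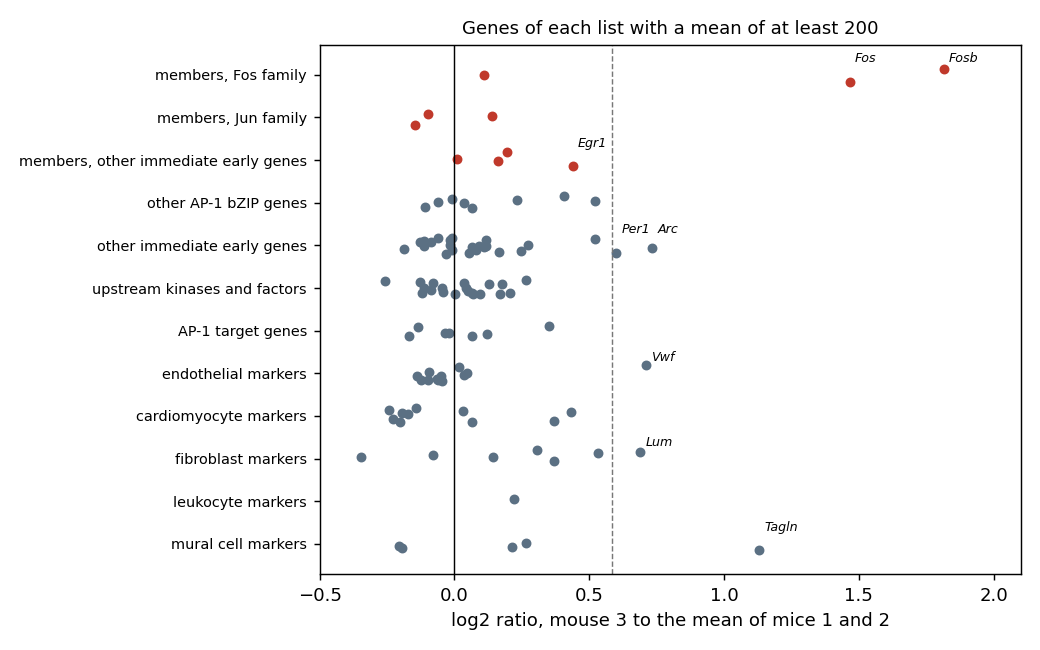
Log2 ratio of mouse 3 to the mean of mice 1 and 2 for each gene with a mean of at least 200, by list, with the 10 genes in red and a dashed line at 1.5-fold. Fos and Fosb stand apart at 1.47 and 1.81, and Tagln, a smooth muscle gene, is the next at 1.13.

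The genes whose pattern over the 3 mice was nearest to that of Fos, by the Euclidean distance of centred log2 values, were Ahsg at a distance of 0.25, Rasgef1b at 0.29, and Art4, Fosb and Plagl1 at 0.30, 0.30 and 0.31. Ahsg, which encodes the plasma protein fetuin-A, had 190, 130 and 421 normalized counts. Rasgef1b, which encodes a guanine nucleotide exchange factor, had 202, 185 and 421. Nearest to Fosb were Fos at 0.30, Ahsg at 0.48, Pkhd1l1 at 0.54, Zbtb16 at 0.54 and Zbed6 at 0.55. Zbtb16, which encodes the transcription factor PLZF, had 213, 285 and 598. With 3 mice, any gene that is high in mouse 3 comes out near.

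Markers of other cell types and vessel types also differed in mouse 3. Of the 8 mural cell markers, all were listed and their summed normalized counts were 1610, 2002 and 2274. The contractile smooth muscle genes among them were lowest in mouse 1 and highest in mouse 3, with Myh11 at 31, 118 and 240, Acta2 at 67, 128 and 210 and Tagln at 103, 206 and 338. In contrast to Fos and Fosb, these genes differed between mice 1 and 2. Pdgfrb shared this pattern with 212, 254 and 280. The other 4 did not, with Rgs5 at 542, 615 and 505, Kcnj8 at 138, 85 and 119, Abcc9 at 383, 301 and 396 and Cspg4 at 134, 295 and 186. Of the 12 endothelial markers, 1 was at least 1.5-fold above both other mice in mouse 3, namely Vwf, the gene of von Willebrand factor, which is strongest in veins and large vessels, with 1898, 1886 and 3098. The median log2 ratio of mouse 3 was -0.06 for the endothelial markers, -0.16 for the 10 cardiomyocyte markers and 0.31 for the 7 of 8 fibroblast markers with a mean of at least 200, whose summed normalized counts were 3047, 3970 and 4186 over all 8. Among them, Dcn with 813, 579 and 1007 and Lum with 458, 309 and 618 were lowest in mouse 2 and highest in mouse 3. Fos and Fosb had the same order, but their values in mice 1 and 2 lay close together, at 252 and 220 and at 204 and 198. The other fibroblast markers were lowest in mouse 1. Of these, Col1a1 with 378, 642 and 401 and Col1a2 with 454, 669 and 531 were highest in mouse 2. So were Col3a1 with 388, 798 and 655 and Postn with 344, 741 and 671. Pdgfra with 196, 203 and 258 and Tcf21 with 16, 29 and 45 were highest in mouse 3. Of the 9 leukocyte markers, Cd3e and S100a8 are not listed, Cd79a had 1, 10 and 0, and Lyz2 was the single one with a mean of at least 200, at a log2 ratio of 0.22. The part of these differences in the values of Fos and Fosb was not tested.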

How the data were processed

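The authors trimmed reads with Trimmomatic 0.39, aligned them with STAR 2.7.11a to mm39 (Ensembl release 109), removed duplicates with Picard 3.1.1 as well as multi-mapping, ribosomal and mitochondrial reads, counted exonic reads by strand with featureCounts 2.0.4 and normalized the counts with DESeq2 1.36.0. The deposited values are a score in that these counts were divided by size factors and rounded to whole numbers. They are not raw counts, so no count model was fitted. Reads behind a value were estimated from empty and doubled whole numbers between 5 and 120, which gave about 7319000, 6755000 and 7565000 reads. The coefficient of variation expected from counting is the root mean of 1 / reads, and PCR copies are covered only as far as duplicate removal goes. It was not corrected for start positions already occupied, so multiples of it are least certain for genes with many reads per length. No column belonged to another sample.

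Means, SDs, coefficients of variation and ratios were taken over the 3 mice, which the labels call biological replicates. Calls needed a mean of at least 200. On a simulated table in which 200 genes were 2.5-fold higher in mouse 3, the 1.5-fold rule found 200 and called 0 others among 9337 genes tested, and the worth of 1 read was off by at most 0.0004. Every simulated gene had the same spread between mice beyond counting, so this checks the code and gives no rate of false calls. In the deposited values the rule called 18 genes in mouse 1 and 9 in mouse 2. Canonical and exonic lengths and starts come from GENCODE M39 (GRCm39), which held 17475 of the 17583 genes (99.39%) and is a later release than the one used for counting, and promoter sequence was read from GRCm39. Exact copies were searched with BLAST 2.17.0. Nearest patterns used log2(value + 1). Python 3.11.15, numpy 2.4.6, pandas 2.3.3 and matplotlib 3.10.9 were used.

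The 10 genes and all lists were chosen with earlier results of these data known. Genes named are the 10, the 2 of each pathway list with the highest normalized counts, list genes past a limit (1 such gene is left out here), and the 5 nearest to Fos and to Fosb. Fosl1, Batf, Batf2, Batf3, Dusp1, Klf2, Klf4, Egr3, Socs3, Srf, Mapk7, the Mmp genes, the marker genes and the genes of the closing section were named after their values were seen.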

Additional observations from a re-analysis of the deposited data

How the results depend on the processing

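No direction or call of Fos or Fosb changed under trimmed-mean scaling, equal totals or the higher of the other mice as reference. None of these could change them. The scaling factors lay between 0.994 and 1.011, and the higher of the other mice is already the reference of the 1.5-fold call. Their log2 ratios of mouse 3 to the others lay between 1.37 and 1.65 for Fos and between 1.79 and 1.93 for Fosb over the alternatives. Of 148 alternative values, 140 stayed within 1 SD over the mice (counts, within 1.5 times), which for Fos and Fosb is a wide limit, since without mouse 3 their means were 236.0 and 201.0 against 374.7 and 369.7. The order per length rests on the length, since 3 of 10 genes kept their place by exonic length and 1 without division. The Fos to Jun family ratio was 0.291 per canonical length, and between 0.486 and 0.669 with each mouse left out. Members over 20% in coefficient of variation numbered between 1 and 3 with each mouse left out, and the 1, without mouse 3, was Atf3 at 20.1%. Egr1 exceeded the limit only without mouse 1, and without mouse 2 Atf3 took its place at 20.3%. Of all genes, 266 exceeded 30%, 1273 exceeded 20% at a mean of at least 100, and between 455 (without mouse 1) and 921 did so with a mouse left out, against 749. With 3 mice and 1 condition, the number of mice and not the depth limits the spread of Fos and Fosb. No paired analysis was possible because all libraries belong to a single group.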

Other observations

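A different set of genes was low in mouse 1 rather than high in mouse 3. Myc, which encodes a growth-promoting transcription factor, was at 85, 216 and 188 normalized counts in mice 1, 2 and 3. Arc had 117, 273 and 324, Maf 272, 447 and 477, and Plaur, the gene of the urokinase receptor, 470, 697 and 576. Among the genes of the AP-1 class, Atf3 showed this pattern with 274, 365 and 366. Of the fibroblast markers, Postn had 344, 741 and 671, and Col3a1 had 388, 798 and 655, whereas Dcn and Lum were lowest in mouse 2 with 579 and 309. The 7 leukocyte markers listed summed to 447, 681 and 681, with Ptprc at 94, 190 and 154. The part of these cell types in the values of Myc, Arc, Maf, Plaur and Atf3 was not tested. Npas4, an immediate early gene of neurons, was close to the floor of the table with 3, 22 and 4, and Il6 had 16, 15 and 9.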
